A study of Mus musculus with 2 samples.

Results

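The genes examined here are the nuclear genes of oxidative phosphorylation in monocytes and macrophages of mouse skin wounds. They were the rows of the gene list whose symbols begin with Nduf, Sdha to Sdhd, Uqcr, Cox4i1, Cox5, Cox6, Cox7, Cox8a, Cycs, Cyc1 or Atp5, with at least 20 unique molecular identifiers (UMIs, each standing for 1 captured transcript) over the cells of both libraries. Of 31053 listed genes, 96 matched and 94 passed the minimum. The 2 that did not, Cox7b2 and a second Atp5o entry, had 0 UMIs. The lowest genes that passed were Cox6a2 with 50 UMIs, Atp5s with 64 and Ndufa4l2 with 68, so no gene lay close to the minimum. By role, 36 encode subunits of complex I, 4 of complex II, 9 of complex III, 1 cytochrome c, 16 subunits or paralogs of complex IV, and 15 subunits of complex V. The other 13 are assembly factors that carry the same prefixes, with Atp5s among them. The 13 protein-coding genes of mitochondrial DNA, whose symbols begin with mt-, were followed beside them.

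Oxidative phosphorylation is carried out in the inner mitochondrial membrane. Complexes I and II pass electrons from NADH and succinate to ubiquinone, complex III passes them to cytochrome c, and complex IV passes them to oxygen, while complex V uses the proton gradient so built to make ATP. Complexes I, III, IV and V combine subunits made in the cytosol from nuclear genes with subunits made inside the organelle from mt- genes, and complex II is wholly nuclear. Macrophages are known to shift between glycolysis and respiration with their activation: inflammatory stimulation favours glycolysis and can damage or slow the chain through nitric oxide and itaconate, and repair-type activation favours respiration.

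The transcription factors NRF1, GABP and YY1 are known regulators of respiratory genes, and the letters of their motifs were looked for in the promoters. Promoters of 79 of the 94 genes were found in RefSeq (GRCm38.p6) as windows of 300 bases, from 250 before to 50 after the start. Letters of the NRF1 motif (GCGCA and GCGC with any base between) were found on either strand in 26.6% of the 79, of the GABP motif (CCGGAAG) in 26.6% and of the YY1 motif (AAGATGGC) in 13.9%. Over the 9633 measured genes with a promoter the shares were 11.7%, 20.8% and 5.47%, and over all 27025 genes with one they were 5.19%, 9.93% and 3.19%. Different motifs shared bases in 0 of the 79, and GCGCATGCGC reads the same on both strands. On the sense strand alone, the GABP letters were in 10.1% of the gene set and in 11.6% of the measured genes, so the difference for GABP lay on the other strand. At least 1 of the 3 motifs was found in 45 of the 79, among them 17 of 32 promoters of complex I, 3 of 3 of complex II, 3 of 5 of complex III, 3 of 12 of complex IV, 11 of 14 of complex V and 8 of 12 of the assembly group. The share of measured genes with at least 1 of the 3 was not counted, so these counts have no background. Stretches upstream of the start are shown for 7 genes, to let the spacing and repetition of the motifs be read in promoters of complexes I, II, IV and V and of an assembly factor. They were chosen for their matches, capitals mark the motif letters, and CTTCCGG is the GABP motif on the other strand. A match is a description of letters and not evidence of binding.
Ndufb4 promoter, chr16:37654369-37654574, minus strand: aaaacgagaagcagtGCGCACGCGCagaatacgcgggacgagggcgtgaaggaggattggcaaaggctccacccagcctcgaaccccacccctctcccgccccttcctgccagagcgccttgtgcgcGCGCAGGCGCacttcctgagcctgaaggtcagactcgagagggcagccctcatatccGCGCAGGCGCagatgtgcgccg
Sdhd promoter, chr9:50603874-50603943, minus strand: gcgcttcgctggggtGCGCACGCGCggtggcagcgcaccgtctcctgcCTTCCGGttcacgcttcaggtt
Sdha promoter, chr13:74350241-74350353, minus strand: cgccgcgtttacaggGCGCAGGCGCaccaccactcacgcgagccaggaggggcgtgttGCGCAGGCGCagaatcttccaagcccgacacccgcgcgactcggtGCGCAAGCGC
Cox6a1 promoter, chr5:115348959-115349135, minus strand: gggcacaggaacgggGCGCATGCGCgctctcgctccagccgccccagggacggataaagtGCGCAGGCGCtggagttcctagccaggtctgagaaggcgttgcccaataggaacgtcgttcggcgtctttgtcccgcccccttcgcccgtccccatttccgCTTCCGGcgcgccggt
Atp5h promoter, chr11:115419936-115420075, minus strand: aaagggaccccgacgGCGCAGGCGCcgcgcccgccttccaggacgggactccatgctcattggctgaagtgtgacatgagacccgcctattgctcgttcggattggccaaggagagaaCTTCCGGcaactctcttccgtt
Atp5j promoter, chr16:84835016-84835079, minus strand: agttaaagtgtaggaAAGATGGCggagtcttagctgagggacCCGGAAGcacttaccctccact
Ndufaf4 promoter, chr4:24897955-24897994, plus strand: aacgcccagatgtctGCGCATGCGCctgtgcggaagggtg

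In the Ndufb4 and Sdha stretches the NRF1 letters occurred 3 times, and in that of Sdha the last copy ended at the base before the start. Sdhd, Cox6a1 and Atp5h joined NRF1 letters to a GABP motif on the other strand, and Atp5j joined YY1 to GABP. Genes with and without a motif gave the following median log2 ratios between the libraries, which are described gene by gene further on. The 21 genes with the NRF1 motif had 0.42 and the 58 without it 0.25. For GABP the medians were 0.32 with and 0.30 without, and for YY1 they were 0.32 and 0.30. All measured genes were not split by motif, so these medians have no background, and a link between motif and ratio was not tested.

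The data are 2 single-cell libraries made with the 10x Chromium 3' method, 1 from non-diabetic and 1 from diabetic mice. Each held cells of enzymatically digested skin wounds at day 6 after injury, pooled from 2 mice of a strain, and labelled as monocytes and macrophages. The labels name neither the strains nor the diabetic model, so strain and diabetes cannot be told apart. With 1 library in each group no test between groups is possible; intervals below are at 95% and cover counting error only, and a difference of at least 1.5-fold is called only to describe its size.

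The non-diabetic library held 2026 barcodes with 17559986 UMIs and the diabetic library 2214 with 31730014. Barcodes with 10% or more mt- UMIs made up 43.9% and 20.2%. After removal of these, of barcodes under 500 genes and of called doublets, 1121 and 1751 cells were kept, with a median of 14067 and 16297 UMIs. The libraries shared 6 barcodes, 1 of them among kept cells. Clustering gave 15 clusters, of which 10 drew over 90% of their cells from 1 library, so most cell states had few cells of the other library. Monocyte and macrophage markers were present in both libraries. The 10 neutrophil markers summed to 285 UMIs for each 1000000 of the library (CPM) in the non-diabetic cells, with Ngp at 0, and to 4627 CPM in the diabetic cells. The fibroblast markers stood at 239 and 18.1 CPM and the dendritic cell markers at 335 and 94.8 CPM. T or NK cell markers were near 0, at 0.130 and 3.17 CPM, with Cd3e at 0 in both. The part of these differences in the results below was not tested.

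Over all kept cells the nuclear respiratory genes stood slightly higher in the diabetic library. The 81 subunit genes and cytochrome c summed to 16750 CPM in non-diabetic and 19620 CPM in diabetic cells, 1.17-fold higher (log2 0.23, interval 0.22 to 0.23). Of the 94 genes, 13 were at least 1.5-fold higher, beside 18.7% of all 12333 measured genes, and 0 were 1.5-fold lower, beside 12.8%. The share of called genes was therefore near or below the background, and the pattern was one of many small differences in the same direction. In sign, 82 genes were higher and 12 lower, beside 7447 and 4886 of the 12333 measured genes. The interval lay wholly above 0 for 73, beside 38% of measured genes, and wholly below 0 for 3, beside 23.1%. The median log2 ratio was 0.32, against 0.12 over all measured genes. In the 82 genes reaching 20 CPM in either library, 8 were called higher, beside 9.79%, and 0 lower, beside 9.95%, with medians of 0.29 for the gene set and 0.08 for all genes at that level. There the interval lay wholly above 0 for 66 of the 82, beside 2488 of 5568 genes, and wholly below 0 for 3, beside 1707.

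These sums depend on which cells each library holds and on scaling. Without the cluster led by Inhba, which was almost wholly non-diabetic, 3 genes stayed at 1.5-fold or more (Cox6a2, Ndufa4l2 and Ndufa5), the median was 0.18 and the subunit sum differed by 0.10 on the log2 scale. Without the Ctsk-led cluster, almost wholly diabetic, 4 remained. Genes higher in sign numbered 65 of 94 without the Inhba-led and 74 without the Ctsk-led cluster. They numbered 90 without a cluster led by Stfa3, also almost wholly diabetic. Scaling by TMM or by DESeq2 size factors moved the median of all genes by -0.11 and -0.12, and the split of all measured genes at 1.5-fold from 18.7% higher and 12.8% lower to 14.6% and 15.7% with TMM. The count at 1.5-fold or more was 4 under TMM and 4 under DESeq2. In sign, 69 genes were higher under TMM and 68 under DESeq2, in place of 82. Such a factor moves every gene by the same amount, so the gap of 0.20 between the gene set's median and that of all genes cannot depend on it. Per cell, the subunits took a median of 1.54% of UMIs (quartiles 1.12% and 1.94%) in non-diabetic and 1.87% (1.58% and 2.18%) in diabetic cells, and thinning each cell to 2000 UMIs gave 1.5% and 1.9%.

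**Figure D1:**
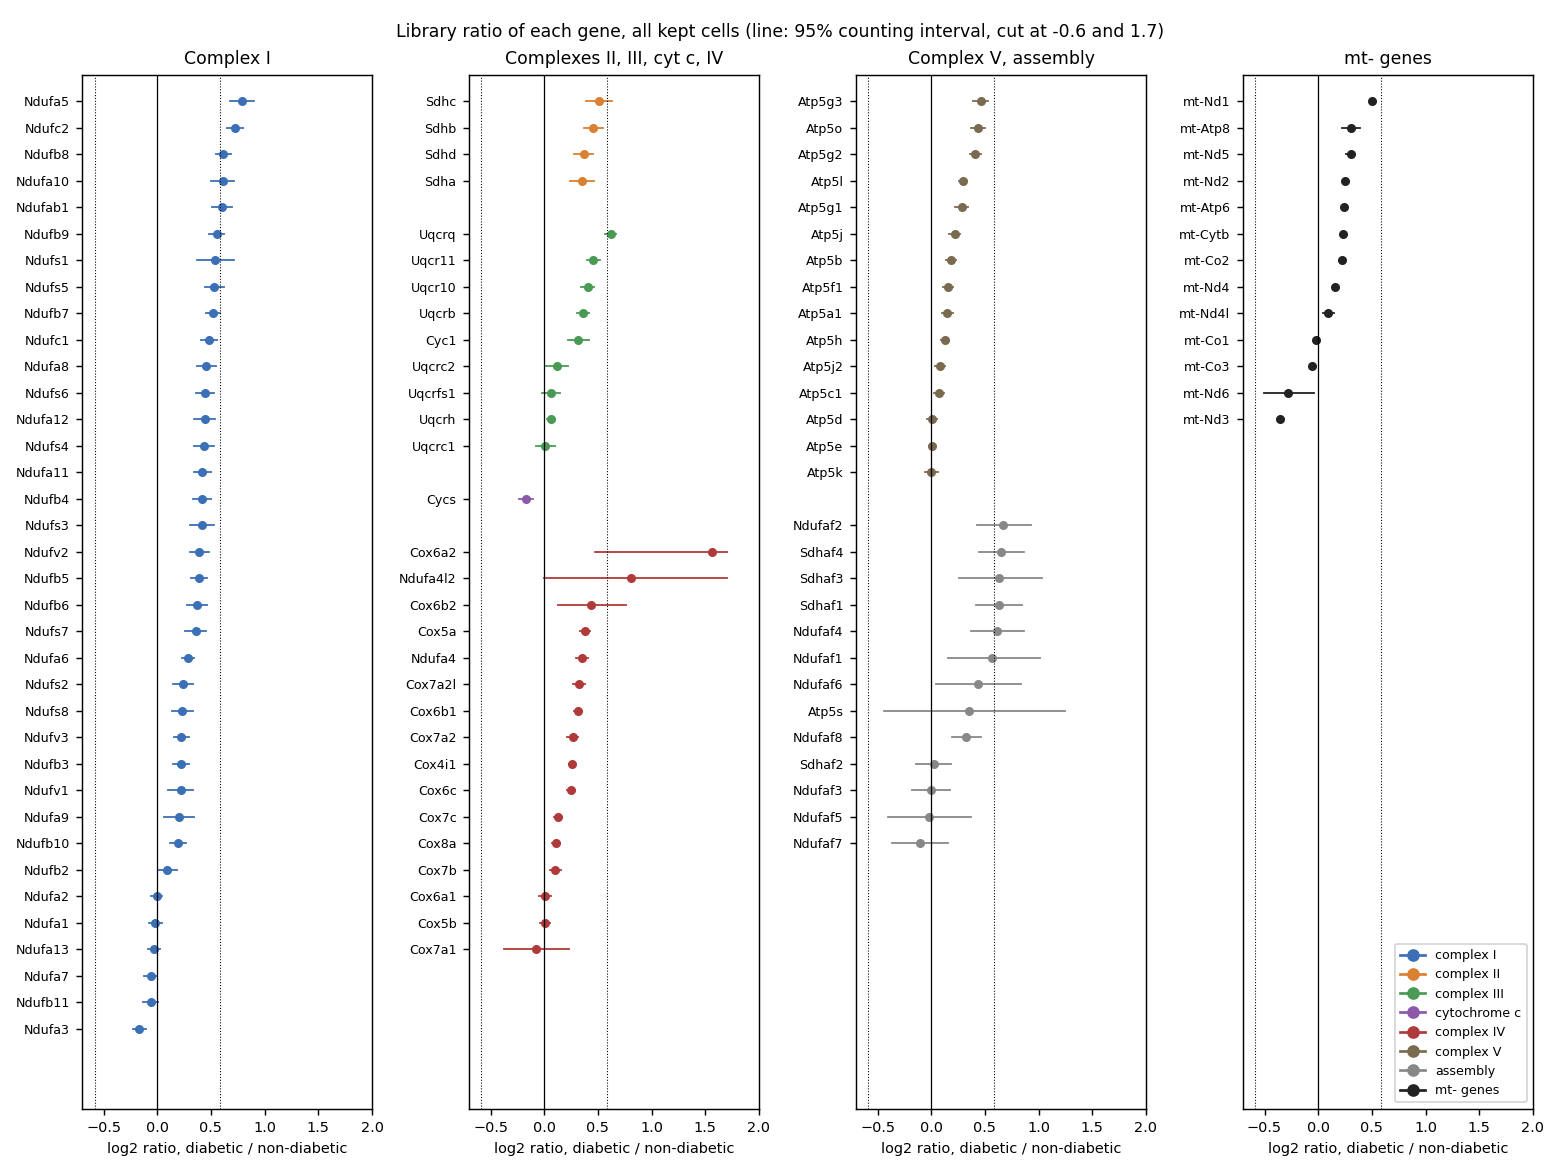
Log2 ratio of diabetic over non-diabetic CPM for each nuclear gene and each mt- gene (points, x axis), with 95% counting intervals as lines cut at -0.6 and 1.7, grouped by complex, and dotted lines at 1.5-fold. Most nuclear genes lie right of 0, with complex I reaching 0.79 (Ndufa5) and cytochrome c (Cycs) at -0.17, while complex V genes lie between -0.00 and 0.46.

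Complex I, the NADH dehydrogenase, summed to 4452 and 5426 CPM, a log2 ratio of 0.29. Of its 36 genes, 30 were higher and 6 lower in sign, 5 were called higher and 0 lower, and the median was 0.39. The 7 core subunits, which hold the flavin and iron-sulfur centres, were all higher in sign with a median of 0.36, and none reached 1.5-fold. The 29 accessory subunits, which surround and stabilise that core, had a median of 0.42 and held all 5 called genes. Ndufa5 (chr6:24518666-24528013, minus strand) stood at 53.2 CPM in non-diabetic and 92.0 CPM in diabetic cells, log2 0.79 (0.68 to 0.90). Ndufc2 (chr7:97400003-97407802, plus strand) stood at 129 and 213 CPM, log2 0.73 (0.65 to 0.80). Both are accessory subunits of the matrix or membrane arm, and both were among the 4 genes that stayed at 1.5-fold under TMM or DESeq2 scaling. Ndufb8 stood at 157 and 241 CPM, Ndufa10 at 60.2 and 91.8 CPM, and Ndufab1, also the mitochondrial acyl carrier protein, at 82.0 and 125 CPM. These 3 lay between 1.52-fold and 1.53-fold, close to the limit.

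Ndufa2, Ndufa6 and Ndufa13, named for their large UMI sums, differed less. Ndufa2 stood at 301 and 300 CPM and Ndufa13, also known as GRIM-19, at 251 and 245 CPM, while Ndufa6 stood at 245 and 299 CPM, log2 0.29. Ndufa3, an accessory subunit, was the lowest in ratio, with 222 and 198 CPM and a log2 ratio of -0.17 (-0.23 to -0.11). The 6 genes lower in sign were therefore all accessory subunits, at -0.17 to -0.01, beside 23 accessory subunits that were higher.

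Complex II, succinate dehydrogenase, which also serves the tricarboxylic acid cycle, summed to 296 and 395 CPM, log2 0.42, and all 4 genes were higher with intervals above 0. The flavoprotein subunit Sdha stood at 62.8 and 80.2 CPM, log2 0.35, and the iron-sulfur subunit Sdhb (chr4:140961203-140979193) at 98.6 and 136 CPM, log2 0.46. The membrane anchors Sdhc and Sdhd stood at 47.2 and 67.0 CPM, log2 0.51, and at 87.2 and 112 CPM, log2 0.37. None of the 4 reached 1.5-fold, and their values lay close together.

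Complex III, the cytochrome bc1 complex, summed to 1775 and 2193 CPM, log2 0.31. Uqcrq (chr11:53427922-53430831, minus strand), a small subunit in contact with cytochrome b, was the called gene, with 286 and 439 CPM and a log2 ratio of 0.62 (0.57 to 0.67). Uqcrh, the hinge protein, stood at 449 and 469 CPM and Uqcrb at 261 and 334 CPM. The core protein gene Uqcrc1 stood at 103 CPM in both libraries, log2 0.01. All 9 genes were higher in sign, over a range from 0.01 to 0.62, so the members of complex III were less alike than those of complex II.

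Cytochrome c, which carries electrons from complex III to complex IV and also takes part in apoptosis, went the other way. Cycs (chr6:50562563-50566538, minus strand) stood at 184 CPM in non-diabetic and 164 CPM in diabetic cells, log2 -0.17 (-0.23 to -0.10). Another counted gene, Gm10053, is at least 95% identical over 200 bases or more and stood at 3.38 and 3.33 CPM, so a small share of Cycs counts is uncertain.

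Complex IV, cytochrome c oxidase, summed to 5011 and 5784 CPM, log2 0.21, with 15 of 16 genes higher in sign and 2 called. Cox4i1, the subunit at which ATP acts on the enzyme, stood at 791 and 945 CPM, log2 0.26. Cox8a stood at 669 and 722 CPM, log2 0.11, turning to -0.00384 under TMM and -0.0108 under DESeq2 scaling, and Cox7c at 568 and 622 CPM, log2 0.13. Cox5a stood at 310 and 403 CPM, log2 0.38, while its partner Cox5b stood at 383 and 384 CPM, log2 0.01. The 2 called genes were at very low levels: Cox6a2, the heart and muscle paralog of Cox6a1, had 7 UMIs (0.455 CPM) and 43 UMIs (1.42 CPM), and Ndufa4l2, a hypoxia-induced paralog of Ndufa4, stood at 0.974 and 1.75 CPM with an interval that included 0.

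Paralogs of the same position kept their shares. Cox6a1 made up 99.8% of subunit 6a UMIs in non-diabetic and 99.4% in diabetic cells, and Cox6b1, whose paralog Cox6b2 is best known from testis, made up 98.4% and 98.3%. Ndufa4 made up 99.6% and 99.4% beside Ndufa4l2. Within the Cox7a group, the muscle form Cox7a1 (chr7:30184144-30186078) held 1.73% and 1.35%, Cox7a2 held 55.9% and 55.2%, and the supercomplex factor Cox7a2l (chr17:83501918-83517330, minus strand) held 42.3% and 43.4%. The 3 genes for subunit c of ATP synthase, which encode the same mature protein, held 32.2% (Atp5g1), 44.8% (Atp5g2) and 23.0% (Atp5g3) in non-diabetic cells and 30.05%, 45.7% and 24.3% in diabetic cells. No share moved by more than a few percentage points.

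Complex V, ATP synthase, showed the smallest ratio of the 5 complexes, from 5033 to 5658 CPM, log2 0.17, with a median of 0.16 and 0 of 15 genes called. Its catalytic F1 genes differed least. Their 5 genes had a median of 0.07, and the epsilon subunit gene Atp5e stood at 767 and 772 CPM, log2 0.01. The 10 genes of the membrane part and stalks had a median of 0.25. Among these Atp5l stood at 558 and 684 CPM, log2 0.29, Atp5h at 472 and 516 CPM, log2 0.13 (-0.04 without the Inhba-led cluster), and Atp5g3 at 151 and 207 CPM, log2 0.46. Atp5k (chr5:108433244-108434448, minus strand), the e subunit at the dimer interface, was at 232 CPM in both libraries.

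The assembly group, which puts the complexes together and is not in the mature enzymes, summed to 186 and 234 CPM and had a median of 0.43. It held 5 of the 13 called genes. Sdhaf1 and Sdhaf4, which serve the iron-sulfur and flavin subunits of complex II, stood at 15.6 and 24.2 CPM, log2 0.63, and at 16.2 and 25.4 CPM, log2 0.65. Sdhaf3, Ndufaf2 and Ndufaf4 were the other 3, at 0.63, 0.67 and 0.61, all under 20 CPM in both libraries. Ndufaf8 stood at 41.9 and 52.5 CPM, log2 0.32. Sdhaf2, which adds flavin to Sdha, stood at 30.7 and 31.1 CPM and Ndufaf3 at 25.3 CPM in both, so the group was not uniform.

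The 13 mt- genes summed to 35645 CPM in non-diabetic and 38747 CPM in diabetic cells, 1.09-fold higher (log2 0.12), with 9 higher and 4 lower in sign and 0 called. That direction reversed when the limit on mt- share was removed (-0.25), under DESeq2 scaling (-0.000676) and when each cell was weighted equally (-0.03). The limit used these same UMIs, so the level in kept cells depends on it. mt-Nd1, of complex I, was highest in ratio, with 1532 and 2170 CPM, log2 0.50. mt-Nd3, also of complex I, was lowest, with 684 and 536 CPM, log2 -0.35. mt-Nd2, mt-Nd4l, mt-Nd4, mt-Nd5 and mt-Nd6 gave 0.25, 0.10, 0.16, 0.30 and -0.28. The complex IV genes mt-Co1, mt-Co2 and mt-Co3 gave -0.02, 0.23 and -0.06, mt-Cytb of complex III gave 0.24, and mt-Atp6 and mt-Atp8 of complex V gave 0.24 and 0.30. Counts of mt-Atp8 with mt-Atp6, mt-Nd4l with mt-Nd4, and mt-Nd5 with mt-Nd6 are uncertain, because these pairs overlap and the strand setting is not given in the sources used here.

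Among kept cells, mitochondrial and nuclear transcripts of the same complex were in similar proportion in the 2 libraries. There were 2.13 mt- UMIs for each nuclear subunit UMI in non-diabetic and 1.97 in diabetic cells. For complex I the values were 1.36 and 1.31, for complex III 1.29 and 1.23, for complex IV 4.23 and 3.76, and for complex V 1.21 and 1.27. Complex V was thus the complex of these 4 with more mt- UMIs per nuclear UMI in the kept diabetic cells. The limit on mt- share used the same UMIs, so these proportions depend on it. With no such limit, the mt- sum was lower and the nuclear sum higher in the diabetic library.

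Across clusters the nuclear genes covered a wide range of levels. As 10 of the 15 clusters drew over 90% of their cells from 1 library, cell state and library cannot be told apart in this range. Clusters are called by their leading gene, and a value is given for each cluster and library with at least 30 cells, which gave 17 values. The cluster led by Gm42418 had 37 non-diabetic cells in which that gene took 45.3% of UMIs, and it is left out of the comparisons below. It stood at 4425 CPM of nuclear subunits and 65122 CPM of mt- genes. Over the other 16, subunits ranged 3.08-fold, from 11947 CPM in the Inhba-led non-diabetic cells to 36815 CPM in the Ctsk-led diabetic cells, with a median of 18684 CPM. The mt- genes ranged 1.47-fold, from 30583 CPM in the Cd209a-led non-diabetic cells to 44860 CPM in the Gas6-led diabetic cells. With no limit on mt- share these ranges were 7.80-fold and 5.75-fold, the lowest nuclear value, 4837 CPM, then lying in non-diabetic cells that the limit removes.

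In rising order after the Inhba-led cells, nuclear subunits stood at 14202 CPM in the Stfa3-led diabetic, 16290 CPM in the Chil3-led non-diabetic and 17352 CPM in the Ifit3-led non-diabetic cells. The Cd163-led diabetic, Lpl-led non-diabetic, Tppp3-led diabetic and Nrg1-led diabetic cells followed at 17478, 17561, 17626 and 17974 CPM. The Cd209a-led cells, which carried conventional dendritic cell markers, stood at 19394 CPM in the non-diabetic and 19960 CPM in the diabetic library. The Lpl-led diabetic cells stood at 21201 CPM, the macrophage-like Gas6-led diabetic cells at 21587 CPM and the Lyz1-led diabetic cells at 22188 CPM. Counting intervals overlapped in 4 of the 13 pairs that follow each other in this order: those from the Ifit3-led to the Tppp3-led cells, and the Lpl-led diabetic with the Gas6-led cells. The gap from the Lyz1-led to the Ctsk-led cells, 1.66-fold, was the widest between neighbours.

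**Figure D2:**
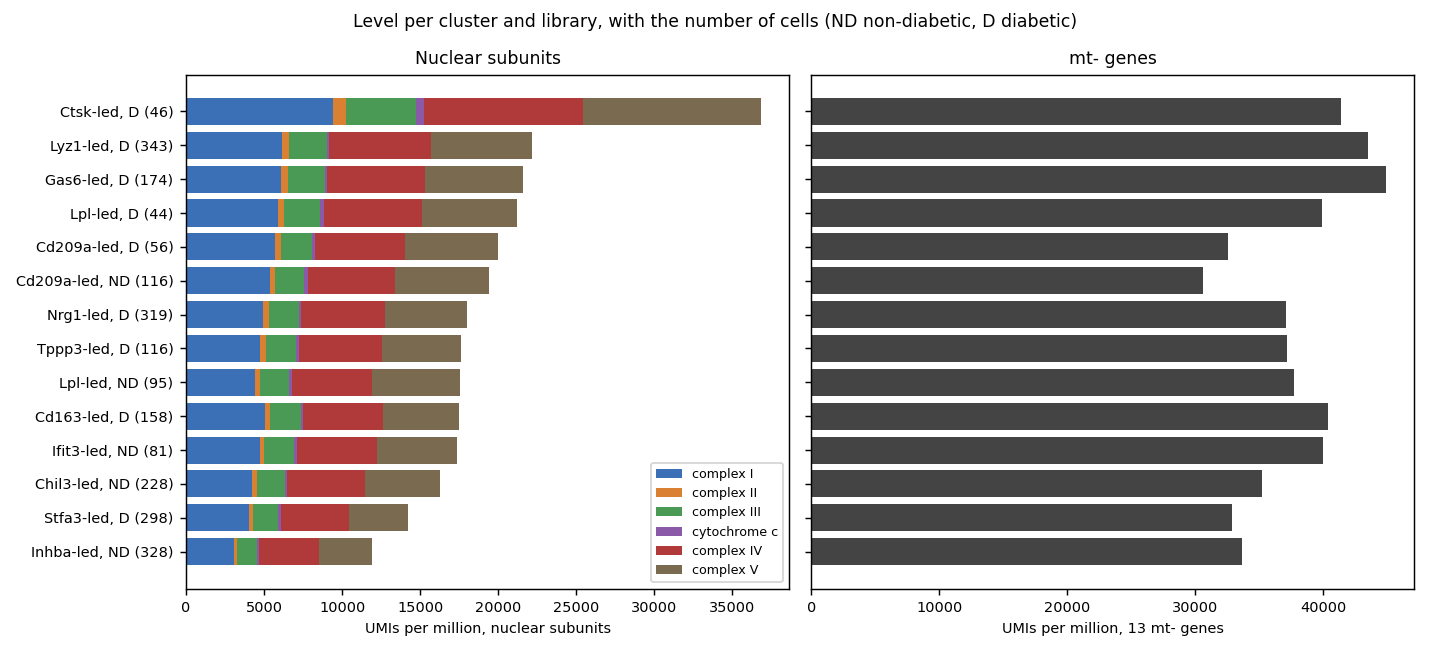
Summed CPM of nuclear subunits by complex (left, stacked bars) and of the 13 mt- genes (right) in each cluster and library with 30 or more cells, ordered by the nuclear sum, for 14 of the 16 values. Nuclear subunits run from 11947 CPM in the Inhba-led to 36815 CPM in the Ctsk-led cells, while the mt- bars stay between 30583 and 44860 CPM and follow that order only in part (rho 0.50).

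Complexes I, III, IV and V kept similar proportions across these states, and the small share of complex II varied more. Complex I held 25.3% to 28.8% of subunit UMIs, complex II 1.58% to 2.19%, complex III 9.70% to 12.2%, complex IV 27.8% to 32.2% and complex V 26.6% to 32.0%. Cytochrome c varied most, from 0.528% in the Lyz1-led to 1.37% in the Ctsk-led cells. The number of mt- UMIs for each nuclear UMI ran from 1.12 in the Ctsk-led to 2.82 in the Inhba-led cells. Across the 16 values, which share libraries and depth, the nuclear sum and the mt- sum had Pearson r 0.46 and Spearman rho 0.50. With the share of UMIs from cytosolic ribosomal protein genes, from 7.21% (Inhba-led) to 23.3% (Ctsk-led), the nuclear sum had r 0.77 and rho 0.84. With the sum of glycolysis genes, from 5063 CPM (Cd209a-led diabetic) to 14273 CPM (Inhba-led), it had r -0.48 and rho -0.71, and with the median UMI count r 0.69 and rho 0.30. Taken separately, the 6 non-diabetic and the 10 diabetic values gave rho 0.09 and 0.66 with the mt- sum, 0.94 and 0.82 with ribosomal protein share, and -1 and -0.70 with glycolysis. With median UMI count they gave 0.89 and -0.26, opposite signs in the 2 libraries. The part of depth and of ribosomal protein share in the order was not tested.

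The Ctsk-led cluster, with 46 diabetic and 4 non-diabetic cells, was led by Ctsk, Atp6v0d2, Slc9b2 and Acp5, genes known from osteoclasts and other multinucleated macrophages, and also carried all 6 cycling markers, at 625 CPM in sum. Since its leading genes and its marker name differ, it is called here by Ctsk alone. Most of its cells lacked that gene: 31 of the 46 diabetic cells had 0 Ctsk UMIs. In these 31, Acp5 stood at 363 CPM and nuclear subunits at 26959 CPM. In the 13 diabetic cells with 10 or more Ctsk UMIs they stood at 4360 and 47925 CPM. Against the other diabetic cells, 77 of 94 genes were at least 1.5-fold higher, beside 32.6% of measured genes, and 3 were lower, beside 28.4%. The median was 1.07, against 0.09 over all genes and 0.09 for the mt- genes. Clusters were formed on these same cells, so this is a description. The excess over the Inhba-led cells was 3.09-fold for complex I, 3.79 for complex II, 3.48 for complex III, 3.92 for cytochrome c, 2.66 for complex IV, 3.32 for complex V and 4.80 for the assembly group. For the mt- genes it was 1.23, and for those of complex IV 0.999.

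Genes named in the Ctsk-led cells were chosen after their values were seen. Ndufaf4 (chr4:24898083-24905001, plus strand), a complex I assembly factor whose promoter is shown above, stood at 96.9 CPM against 13.7 CPM in the other diabetic cells, 7.09-fold higher. Cyc1, the cytochrome c1 of complex III, stood at 346 against 78.3 CPM, 4.42-fold higher, and its electron acceptor Cycs at 503 against 145 CPM. Atp5g1 stood at 836 against 224 CPM and the catalytic beta subunit gene Atp5b at 1189 against 350 CPM. Cox6a2, low elsewhere, stood at 10.6 against 0.905 CPM. The 3 lower genes were Ndufa4l2, with 0 UMIs, Cox6b2 at 3.13 against 10.6 CPM and Ndufaf7 at 7.50 against 11.8 CPM. Of the 82 genes at 20 CPM or more, 70 had their highest value of the 16 in the Ctsk-led cells. The like count over all measured genes was not taken, so it cannot be said whether this is particular to the gene set.

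Within the cluster, cells with more Ctsk had the higher level. The 13 diabetic cells with at least 10 Ctsk UMIs, a limit set after the data were seen, gave a median of 4.51% of their UMIs to nuclear subunits (3.27% to 7.26%), and the 33 with fewer gave 2.49% (1.84% to 5.99%). The ranges overlapped. Between these cells 66 of 88 genes were 1.5-fold higher in the first, beside 17.2% of measured genes, and 1 lower, beside 22.1%, with a median of 0.81 against -0.05. Median depth was 59132 and 23532 UMIs, and a cycling marker was seen in 11 of 13 and 13 of 33 cells. Whether the deep barcodes hold more than 1 cell, and the part of depth, was not tested. The single non-diabetic cell of the cluster with 10 or more Ctsk UMIs gave 5.36%. Over all kept cells with as many Ctsk UMIs, 19 diabetic and 5 non-diabetic, the share ran from 1.29% to 7.26%. Without the cells of 10 or more Ctsk UMIs in the cluster, the highest level was 2.27 times the lowest in place of 3.08.

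**Figure D3:**
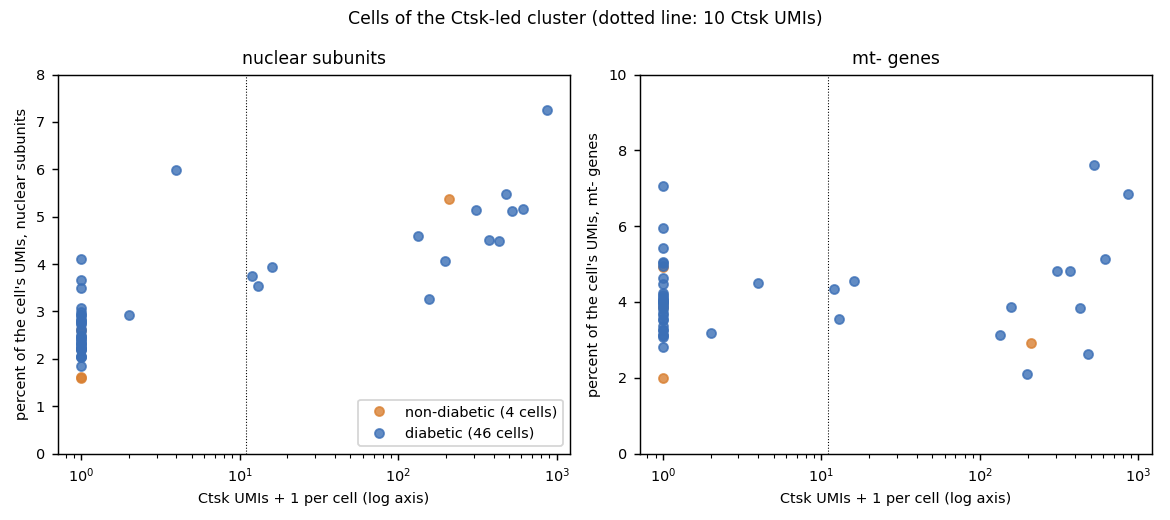
Percent of each cell's UMIs from nuclear subunits (left) and mt- genes (right) against its Ctsk UMIs plus 1 on a log axis, for the 46 diabetic and 4 non-diabetic cells of the Ctsk-led cluster, with a dotted line at 10 Ctsk UMIs. Diabetic cells right of the line lie between 3.27% and 7.26% for nuclear subunits and those left of it between 1.84% and 5.99%, while the mt- shares of the 2 sets overlap more widely.

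The Inhba-led cells, 328 non-diabetic and 4 diabetic, whose other leading genes were Sema3c, Nt5e and Pdpn, were the low end. Against the other non-diabetic cells 64 of 91 measured genes were at least 1.5-fold lower, beside 38.1% of measured genes, and 1 was higher, beside 13%. The median was -0.70, against -0.35 over all genes and -0.21 for the mt- genes. Among assembly factors, chosen after their values were seen, Ndufaf7 stood at 1.56 against 16.03 CPM and Sdhaf1 at 5.19 against 19.1 CPM. Ndufs8, a core iron-sulfur subunit of complex I, stood at 29.6 against 92.9 CPM. The higher gene was Cox7a1, at 16.1 against 6.67 CPM. These cells also had the highest sum of glycolysis genes and the lowest share of ribosomal protein UMIs of the 16.

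The Stfa3-led cells, 298 diabetic and 1 non-diabetic, were the low end of the diabetic library. Of 94 genes, 48 were 1.5-fold lower than in the other diabetic cells, beside 39.7%, and 1 was higher, beside 9.83%, with medians of -0.60 for the gene set and -0.40 for all genes. Neutrophil markers summed to 19411 CPM here, the highest of the 16, and the marker S100a8 and Nos2 were among the 10 leading genes. The cluster did not meet the marker rule for a name. A separate Retnlg-led cluster, with 1 non-diabetic and 19 diabetic cells and so outside the 16, was the neutrophil-like one. The higher gene was Ndufa4l2, at 4.60 against 1.09 CPM. Ndufs8 stood at 35.4 against 103 CPM and Sdhb at 66.7 against 151 CPM, and Cycs, at 173 against 162 CPM, did not share the lower level.

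Other clusters named here lay closer to their library, with medians of the gene set from -0.21 (Nrg1-led diabetic) to 0.31 (Cd209a-led non-diabetic). Most genes followed the common order, with the highest level in Ctsk-led and the lowest in Inhba-led cells, where 61 of 82 had their minimum. The Stfa3-led cells held the minimum of 15 more. Minima were not counted over all measured genes. Ndufaf4 ranged 39.0-fold, from 2.49 CPM in the Chil3-led non-diabetic cells to 96.9 CPM. Cox7a1 followed another order, with its highest level, 16.1 CPM, in the Inhba-led cells. Cox7a2l was lowest in the Lpl-led non-diabetic cells at 121 CPM and highest in the Cd209a-led diabetic cells at 440 CPM, where Ndufa6 too was highest, at 643 CPM. Ndufa2 and Ndufa7 varied little, by 1.80-fold and 1.75-fold.

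**Figure D4:**
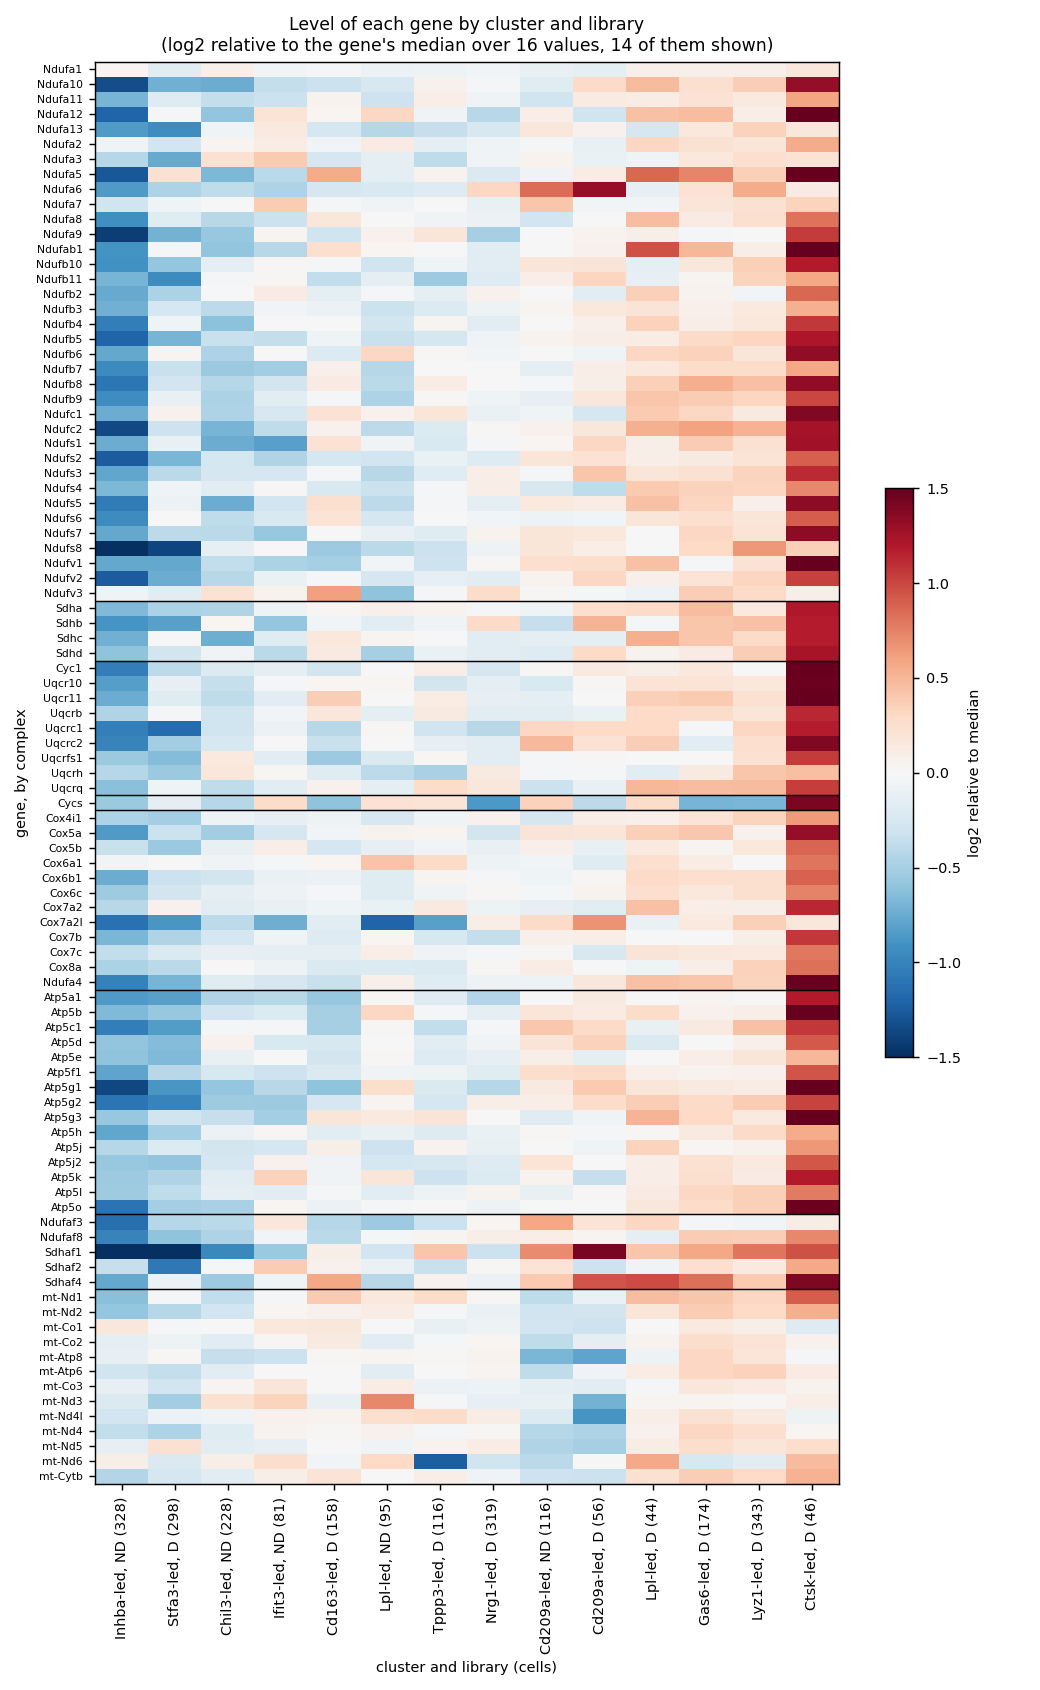
Level of each nuclear gene that reached 20 CPM and of the 13 mt- genes (rows, by complex) in 14 of the 16 cluster and library values (columns), as log2 relative to the gene's own median over the 16, with colours saturating at -1.5 and 1.5. Over the 16 values the Ctsk-led one is the highest for 70 of 82 nuclear genes and the Inhba-led one the lowest for 61, whereas the mt- rows are paler. Such counts were not taken over all measured genes.

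The libraries were also compared within clusters that held 30 or more cells from both. In the Cd209a-led cluster (116 and 56 cells) the median was 0.03, against -0.06 over all measured genes. Here 3 of 90 were higher (Sdhb, Sdhaf1 and Cox6b2), beside 10%, and 3 lower (Cycs, Cox7a1 and Ndufaf7), beside 16.9%. Most of the assembly factors and paralogs among these were under 30 CPM, with wide intervals.

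The Lpl-led cluster (95 and 44 cells, led also by Ccl24 and Axl) had a higher level in diabetic cells. Its median was 0.32, against 0.05 over all genes, with 18 of 88 genes called higher, beside 22.1%, and 0 lower, beside 16.4%. All 36 complex I genes were higher in sign, with a median of 0.41, and all 5 F1 genes of complex V were lower in sign, with a median of -0.04. The cells differed in other markers. Endothelial markers stood at 27.1 CPM in non-diabetic and 750 CPM in diabetic cells, with Cdh5 UMIs in 1 and 5 cells, cycling markers at 26.3 and 166 CPM, and classical monocyte markers at 3098 and 880 CPM. Without cells holding 5 or more endothelial marker UMIs or any cycling marker UMI, 80 and 33 cells remained. The gene set's median was then 0.27 against -0.05 over all genes, with 13 of 84 higher, beside 14.3%, and 1 lower, beside 20.2%.

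A pair of smaller clusters, added after the data were seen, had 20 or more cells from both libraries. The Gas6-led cluster (29 and 174 cells) had a median of 0.20 with 9 of 90 genes higher, beside 13.3%, and 3 lower, beside 20.9%. The Ifit3-led cluster (81 and 27 cells), led by interferon-induced genes, had 0.17 with 14 of 82 higher, beside 16.2%, and 1 lower, beside 15.9%.

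**Figure D5:**
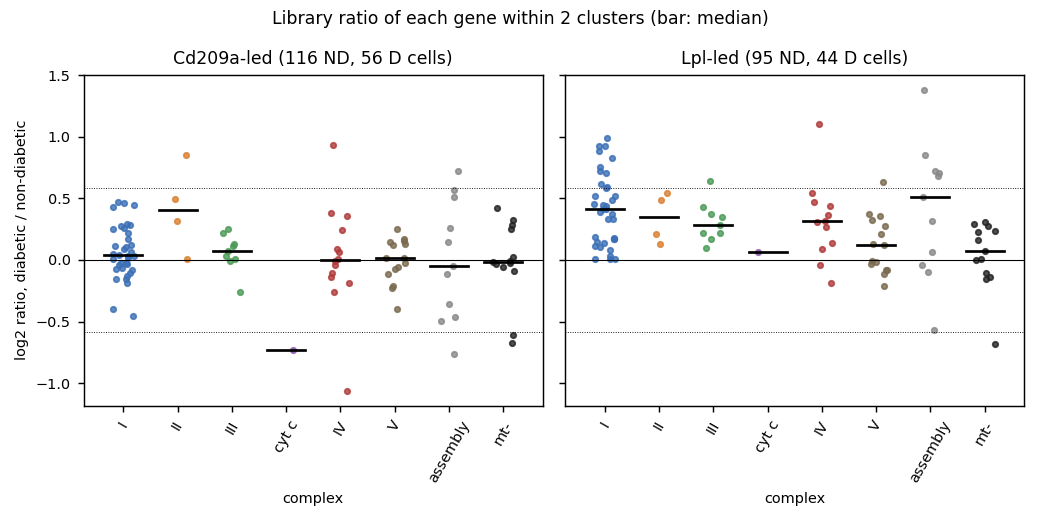
Log2 ratio of diabetic over non-diabetic CPM for each gene (points) within the Cd209a-led and Lpl-led clusters, by complex (x axis), with bars at the median and dotted lines at 1.5-fold. The Cd209a-led points centre near 0 (median 0.03), and the Lpl-led points centre at 0.32.

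Single genes can be followed through these 4 clusters, in the order Cd209a, Lpl, Gas6, Ifit3, all drawn from the same 2 libraries. Uqcrq gave log2 ratios of 0.21, 0.64, 0.82 and 0.50, and in the Lpl-led cells it stood at 327 and 509 CPM. Ndufa10 gave 0.47, 0.72, 0.41 and 0.76. Cox7a2l gave 0.38, 1.10, 0.66 and 0.93, from 121 to 259 CPM in the Lpl-led cells. These 3 genes, chosen after their values were seen, were among 37 of the 82 genes measured in all 4 clusters that were higher in sign in each, beside 12.8% of all 5942 genes so measured. The clusters share their libraries, so this count only places the genes named. Others of the 37 had closer values, such as Cox4i1 with 0.36, 0.32, 0.43 and 0.41.

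Sdhb, also among the 37, gave 0.85, 0.13, 0.45 and 1.07, and stood at 92.5 and 167 CPM in the Cd209a-led cells. Ndufa5 and Ndufc2, the highest of complex I over all cells, gave 0.17 and 0.11 in the Cd209a-led cells, with intervals that included 0, and 0.99 and 0.92 in the Lpl-led cells. In the Gas6-led cells they gave -0.37, with an interval that included 0, and 0.41, and in the Ifit3-led cells 0.71 and 0.94. Their ratio over all cells was thus not seen at that size within the Cd209a-led cluster.

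Lower values recurred in fewer genes. Of the 82 genes, 1 (Atp5k) was lower in sign in all 4 clusters, beside 13.3% of the 5942 genes so measured. Atp5k, equal over all cells, gave -0.40, -0.08, -0.28 and -0.40, from 242 to 183 CPM in the Cd209a-led cells. Cycs gave -0.73, 0.06, -0.37 and -0.35, from 241 to 144 CPM in the Cd209a-led cells. Among the mt- genes, mt-Nd3 gave -0.61, -0.68, -0.71 and -0.53, from 550.5 to 361 CPM in the Cd209a-led cells, and mt-Atp6 gave 0.33, 0.29, 0.06 and 0.20.

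Other mitochondrial lists, compared over all cells, gave medians below the 0.32 of the nuclear genes with their assembly group. The subunits and cytochrome c alone had a median of 0.29, slightly below the 0.30 of mitochondrial ribosomal proteins. On summed CPM their log2 ratio was 0.23, against 0.25 for mitochondrial ribosomal proteins and 0.44 for mitochondrial antioxidants. The remaining mitochondrial lists lay between 0.01 and 0.18 on summed CPM. Of all measured genes, 18.7% were called higher and 12.8% lower. Mitochondrial ribosomal proteins, which translate the mt- messages, had a median of 0.30, with 9 of 77 called higher and 1 lower, and Mrpl13 stood at 27.5 and 49.5 CPM. Enzymes of the tricarboxylic acid cycle had a median of 0.17, with 3 of 18 higher and 0 lower. Isocitrate dehydrogenase Idh2 stood at 33.9 and 59.0 CPM and the pyruvate dehydrogenase subunit gene Dlat at 17.1 and 29.0 CPM. Fatty acid oxidation had 0.20, with 0 of 17 higher and 1 lower, Acadl, at 39.8 and 24.5 CPM. Protein import had 0.22 (1 of 24 higher, Timm10, and 0 lower) and mitochondrial biogenesis 0.20 (1 of 15 higher and 0 lower). Assembly factors outside the rule had 0.20, with 6 of 35 higher and 0 lower. Among them the copper chaperone Cox17 stood lower, at 211 and 147 CPM, log2 -0.52.

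Carriers and channels had a median of 0.21, with 2 of 12 higher and 1 lower. The mitochondrial pyruvate carrier gene Mpc1 was the lower one, at 153 and 88.8 CPM, log2 -0.78, while Vdac2 stood at 182 and 290.5 CPM. Mitochondrial antioxidants had 0.27, with 1 of 8 higher and 0 lower: Sod2, the matrix superoxide dismutase, at 351 and 941 CPM, log2 1.42. Glycolysis had -0.09, with 2 of 18 higher and 2 lower. Pfkfb3 stood at 71.8 and 164.5 CPM, and Pfkp and Eno1 gave -0.94 and -0.60. Cytosolic ribosomal proteins had 0.08, with 0 of 84 called in either direction.

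Of the inflammatory and hypoxic regulators, 9 of 10 were measured, with a median of 0.25, 2 higher and 0 lower. Nos2, whose product nitric oxide inhibits complex IV, stood at 55.9 and 203 CPM, log2 1.86, but gave -0.51 without the Stfa3-led cluster. Acod1, which makes itaconate, an inhibitor of complex II, stood at 63.1 and 115.8 CPM, log2 0.88. Hif1a gave 0.34 and Pdk1, a brake on pyruvate dehydrogenase, 0.50. Cox4i2, the hypoxic form of Cox4i1, had 7 and 11 UMIs and was under the minimum of 20.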

How the data were processed

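Single-cell RNA was read from 2 libraries, 1 for each disease state in the labels. For each barcode and gene the authors deposited a raw UMI count, made with Cell Ranger version 3.0.2 per the file headers, with mm10 named in the submitters' processing notes. Strand setting and annotation release are not given in the sources used here. Cells with at least 500 genes and under 10% mt- UMIs were kept. Scrublet, run through scanpy version 1.11.5, removed 2 and 4 cells, low shares, so doublets may remain.

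Counts per cell were scaled and log-transformed, 2000 variable genes gave 30 principal components, and 15 neighbours were clustered with leidenalg version 0.10.2 at resolution 1, without batch correction. A cluster was named from a marker list when at least 3 markers and 50% of the list were 2-fold higher and in 10% of its cells, a rule set after the data were seen, so names are rebuilt and not the authors'. 1 of the clusters enters the summaries over clusters and is not reported here by itself. Summed counts gave CPM. Ratios were taken as log2 after 0.5 was added to each sum, with a conditional exact binomial interval, and a gene was measured at 20 UMIs. The counts of a 3' method are per transcript and not per length, so levels of different genes are not compared, and summed level served only to choose genes to name. With 1 library per group no model was fitted. edgeR version 4.0.16 (TMM) and DESeq2 version 1.42.0 served only for scaling factors. The log2 ratio and its interval were tested on simulated counts with known changes and counting error only. The fold calls were not tested in this way.

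The genes and lists were chosen with earlier results of these data known. Named genes were, in each complex, the 3 with the highest summed level and those with the highest and lowest ratio at 20 CPM or more, every gene at 1.5-fold and 20 CPM, paralogs of a position, the mt- genes, and up to 4 genes of each other list with the largest ratios, of which the text names part. Others were chosen after their values were seen. Coordinates come from GENCODE M21 on mm10, and promoters from RefSeq on GRCm38.p6, where 15 genes had none. BLAST version 2.17.0 found another gene at 95% identity over 200 bases for 26 of the 94 genes, of which 6 have such a copy among counted genes (Atp5l, Atp5o, Cox5b, Cycs, Ndufaf2 and Ndufb9). Alternatives covered the filters, scaling, clusters left out, fold limit, clustering and motif strand.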

Additional observations from a re-analysis of the deposited data

Results flagged for a closer look

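Barcodes removed for 10% or more mt- UMIs still held nuclear subunit transcripts. Among barcodes with at least 500 genes, 649 were removed in the non-diabetic library, with a median of 0.459% of UMIs from nuclear subunits and 20.9% from mt- genes. In the diabetic library 266 were removed, with medians of 0.617% and 25.7%. Both nuclear medians lie below those of kept cells, 1.54% and 1.87%. These barcodes enter none of the comparisons above, and the difference between libraries in them was not tested.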

How the results depend on the processing

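No paired analysis was possible because each group has 1 library. The count of genes at least 1.5-fold higher, 13 over all cells, was 3 without the Inhba-led cluster, 4 under TMM and 4 under DESeq2 scaling, and 1 at a limit of 2-fold; after the data were seen it was also 4 without the Ctsk-led cluster and 7 without the Inhba-led and Stfa3-led clusters. The count 1.5-fold lower was 0 in every setting run. The count higher in sign, 82 over all cells, was 65 without the Inhba-led cluster, 69 under TMM, 68 under DESeq2 and 72 under 5% mt-. It was 89 with no mt- limit and 90 without the Stfa3-led cluster. The median log2 ratio of 0.32 was 0.39 with no mt- limit, 0.24 under 5% mt-, 0.40 without the Stfa3-led, 0.18 without the Inhba-led and 0.37 without dendritic cell-like and neutrophil-like clusters, 0.20 under TMM, 0.20 under DESeq2, 0.34 with cells weighted equally, 0.26 without the Ctsk-led, 0.31 without the Gm42418-led and 0.27 without the Inhba-led and Stfa3-led clusters. The summed subunit ratio of 0.23 was 0.31 with no mt- limit, 0.16 under 5% mt-, 0.32 without the Stfa3-led, 0.10 without the Inhba-led and 0.27 without dendritic cell-like and neutrophil-like clusters, 0.11 under TMM, 0.11 under DESeq2, 0.31 with cells weighted equally, 0.17 without the Ctsk-led, 0.22 without the Gm42418-led and 0.19 without the Inhba-led and Stfa3-led clusters. The mt- sum of 0.12 reversed to -0.25 with no mt- limit, -0.000676 under DESeq2 and -0.0285 with cells weighted equally. It was 0.19 under 5% mt-, 0.13 at 1000 genes, 0.17 without the Stfa3-led, 0.0941 without the Inhba-led and 0.0927 without dendritic cell-like and neutrophil-like clusters, 0.00626 under TMM, 0.13 with totals without mt-, 0.11 without the Ctsk-led, 0.13 without the Gm42418-led and 0.14 without the Inhba-led and Stfa3-led clusters. The highest over lowest level of 3.08 was 2.79 at resolution 0.5, 3.28 at resolution 2, 7.80 with no mt- limit (added after the data were seen) and 2.27 without the cells of 10 or more Ctsk UMIs. The Spearman value of 0.50 was 0.11 with no mt- limit, and the GABP share of 26.6% was 10.1% on the sense strand.

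For single genes, a reversal was counted only where the interval over all kept cells excluded 0. By this rule, of 44 nuclear genes followed over 16 settings, 3 reversed, in 8 of 702 values. Changes of sign in genes whose interval included 0 are not in this count. Atp5h was -0.0378 and Cox8a -0.00239 without the Inhba-led cluster, and Cox8a -0.00384 under TMM and -0.0108 under DESeq2. Uqcrh was -0.0109 under 5% mt-, -0.0566 without the Inhba-led cluster, -0.0518 under TMM and -0.0587 under DESeq2. With no mt- limit, mt-Nd2, mt-Co2, mt-Atp8, mt-Atp6, mt-Nd4l, mt-Nd4, mt-Nd5 and mt-Cytb were -0.15, -0.14, -0.00419, -0.13, -0.29, -0.23, -0.0607 and -0.14. mt-Nd4l was -0.0181 under TMM, -0.025 under DESeq2 and -0.00432 with cells weighted equally. mt-Co1 was 0.0759 under 5% mt-, 0.0235 without the Inhba-led and 0.0309 without the Inhba-led and Stfa3-led clusters. Nos2 was -0.51 without the Stfa3-led cluster. The cause of these differences was not tested. The Cd209a-led median of 0.03 was 0.03 and 0.04 under the other clusterings. The Lpl-led median of 0.32 was 0.34 and 0.34 under these, 0.25 without cells holding a cycling marker UMI, 0.22 without those holding 5 or more endothelial marker UMIs and 0.27 without either. At these depths genes under 20 CPM have wide intervals, and cells pooled from 2 mice give no spread between animals.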
